A study of Mus musculus with 2 samples.

Results

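In nucleoplasmic RNA of Lipid A treated mouse macrophages, 126 of 3825 well-counted coding genes carried most of their transcript level in isoforms annotated as retained introns. A retained-intron isoform is a transcript of a coding gene that still holds sequence from an intron of the gene's coding isoforms, and the annotation gives it no reading frame. A gene was eligible when it had a protein-coding isoform, at least 500 expected counts in both libraries and a name outside a short list of genes left out by the rule (5 immune genes, Clk1 to Clk4 and symbols starting with Srsf or Hnrnp). It became a member when the RSEM TPM (a transcript level scaled by transcript length and by the library total) of its retained-intron isoforms made up at least 60% of the TPM of all its isoforms in both libraries. The members were 3.29% of the eligible genes. Since these shares chose the members, they are given as a description and support nothing by themselves.

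The 2 libraries formed 1 group and were labelled biological replicates 1 and 2, with the same donor entry. Macrophages grown from bone marrow of C57BL/6J mice were exposed to Lipid A, the TLR4-binding part of lipopolysaccharide, at 100 ng/ml for 12 h, kept without it for 12 h and exposed again at 100 ng/ml for 40 min. Ribosome-depleted RNA of the nucleoplasmic fraction was sequenced. Other cell fractions and cells without Lipid A were not analysed here, so no conditions were compared. The sex and age of the animals were not collected. RNA input was 1 µg for library 1 and 500 ng for library 2, which cannot be told apart from the replicate number. Since nothing in the labels ties the replicates to separate animals, the spread between the libraries may be technical.

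The libraries held 19797829 and 17213606 expected counts on named genes, of which the members took 2.85% and 2.86%. The 8 macrophage markers lay between 32.2 and 1421 TPM in both libraries. The 20 markers of T cells, B cells, neutrophils, fibroblasts, endothelial and erythroid cells summed to 3.90 and 2.77 TPM, the highest stood at 1.94 TPM, and 7 were at 0 in both.

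Introns are cut out of the nascent transcript by the spliceosome, which recognises a donor site at the intron's start, usually GT, and an acceptor site at its end, usually AG. A transcript that keeps an intron is commonly held in the nucleus or, once exported, destroyed by nonsense-mediated decay. Some introns, called detained, stay in finished nuclear transcripts and are removed later. Splicing factors are known for controlling their own levels in this way. RNA of the nucleus also holds transcripts that are still being made, and a short-read level cannot tell a retained intron from an intron not yet removed.

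Introns that the isoforms of the results below keep whole are shown by their ends, because they show which splice sites a coding isoform uses and these isoforms do not. They come from 5 members with a high gene TPM, chosen by the naming rule, whose highest retained-intron isoform keeps a complete coding intron. Lilrb4a, Malt1, Sat1, Zc3h7a and Uba7, also among the highest in gene TPM, have no complete intron in that isoform. Arglu1, a splicing coactivator known for a regulated retained intron, is shown too and was picked after its values were seen. In each donor line the first 3 bases are exon and the next 17 are intron, in each acceptor line the first 20 are intron and the last 3 are exon, and the capitals mark the first 2 and last 2 bases of the intron. Sequences are of the mm10 build, read from the GENCODE M21 transcripts on the gene's strand. Introns are numbered along the coding isoform.
Clec4e intron 2 donor (chr6:123286519-123288893, minus strand): tcgGTgggttctgatgatca
Clec4e intron 2 acceptor: acttccctttcctcttacAGtaa
Clec4e intron 3, whole (chr6:123286360-123286431, minus strand): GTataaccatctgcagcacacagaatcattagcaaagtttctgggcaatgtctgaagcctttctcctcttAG
Pirb intron 6, whole (chr7:3716891-3717117, minus strand): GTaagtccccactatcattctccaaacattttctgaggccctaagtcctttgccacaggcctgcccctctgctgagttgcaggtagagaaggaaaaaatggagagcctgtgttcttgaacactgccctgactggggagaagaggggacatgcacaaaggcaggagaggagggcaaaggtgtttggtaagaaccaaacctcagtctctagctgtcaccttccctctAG
Lilr4b intron 4 donor (chr10:51482905-51483761, plus strand): atgGTaagtgcgggctcttc
Lilr4b intron 4 acceptor: tgatgtcaactgttcctaAGgac
Lilr4b intron 5 donor (chr10:51483879-51484516, plus strand): ctaGTaagtagagcatgagt
Lilr4b intron 5 acceptor: ctgttcttctaacatgacAGatg
Ptprc intron 5 donor (chr1:138117895-138120019, minus strand): cagGTttgggggctctttag
Ptprc intron 5 acceptor: ggtgacccttctgattgcAGgtg
Tmem132a intron 10 donor (chr19:10859152-10859563, minus strand): cagGTgatggccgggggtga
Tmem132a intron 10 acceptor: tgtgtccgtgtgccctgcAGgag
Arglu1 intron 2 donor (chr8:8681468-8683747, minus strand): gagGTaacgctcggtcgttt
Arglu1 intron 2 acceptor: caacatgtcctcccctttAGgag

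The median retained-intron share of the members was 70.2% in library 1 and 71.3% in library 2, or 70.3% as the median of the gene means. Over all 3825 eligible genes the median share was 15.1% and 12.0%, and over the 2630 with an annotated retained-intron isoform it was 26.0% and 22.9%. Member shares ran from 60.1% to 100.0%, with 20 members at or above 80% in both libraries and 8 at or above 90%. Most sat close to the threshold, since the lower of the 2 shares was below 70% in 76 members. Protein-coding isoforms held a median of 25.92% and 25.03% of the members' TPM. They held under 5% in both libraries in 4 members, while isoforms annotated for nonsense-mediated decay held over 5% in both in 20.

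**Figure D1:**
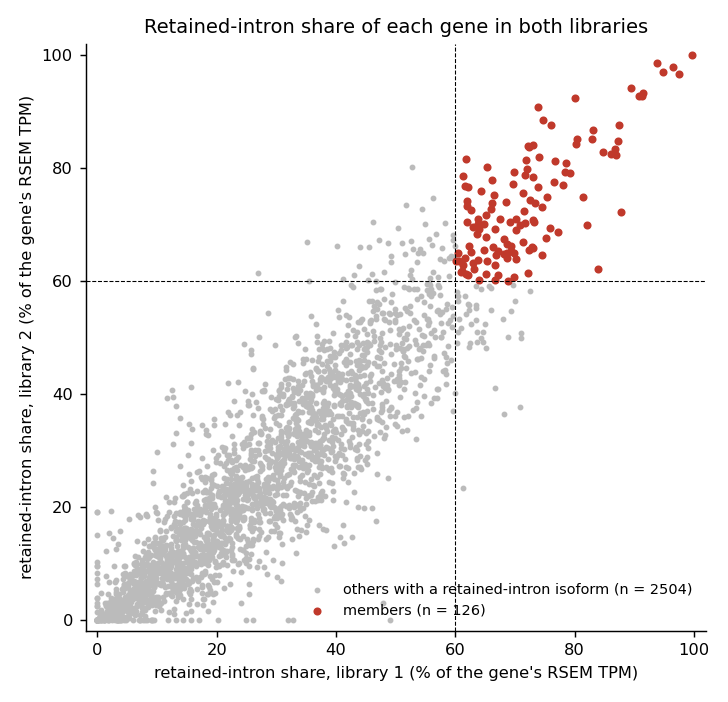
Share of each eligible gene's RSEM TPM in retained-intron isoforms, in library 1 (horizontal axis, percent) and library 2 (vertical axis, percent). Red points are the 126 members, grey points the 2504 other eligible genes with an annotated retained-intron isoform, and dashed lines the 60% threshold that defines the members, most of which lie between the threshold and 80%.

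The members nearest the threshold show how narrow that boundary was. Just inside it stood Cspp1, a centrosome protein gene, at 68.9% and 60.1%, Usp14, a proteasome-bound deubiquitinase, at 64.1% and 60.1%, and Cwf19l2 at 60.1% and 63.5%. Anxa7, an annexin, had 66.8% and 60.2%, and the U1-associated splicing factor Luc7l2 had 60.4% and 64.9%. Just outside stood Zfp26 at 59.9% and 66.2%, Creb1, a transcription factor, at 59.7% and 64.2%, and Vim, the intermediate filament vimentin, at 59.7% and 68.2%. Uspl1 followed at 59.6% and 64.1% and Mtcp1 at 59.5% and 67.3%.

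Immune receptors and surface proteins supplied 11 members, with gene levels from 14.97 to 1434 TPM. The 3 members with the highest gene TPM, Lilrb4a, Lilr4b and Clec4e, were among them. The role groups used here were drawn up after the members were known and hold members only. Their counts therefore have no share of the eligible genes beside them and show no enrichment. Lilrb4a (chr10:51490956-51496611) encodes an inhibitory immunoglobulin-like receptor of myeloid cells. Its retained-intron isoforms summed to 1222 TPM in library 1 and 1569 TPM in library 2, against 0.32 and 2.54 TPM for its protein-coding isoforms. The share was 96.5% and 97.9%, so very little of this gene's estimated level fell on isoforms annotated as coding. Its leading retained-intron isoform, Lilrb4a-206, starts inside a coding intron, and 74.9% of its length is shared with exons of Gm49339. Gm49339 is annotated as a separate protein-coding gene on the same strand and had 101.6 and 142.3 TPM. That level is not part of the coding TPM given for Lilrb4a, so the share depends on where the annotation divides these genes.

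Lilr4b (chr10:51480632-51486703), the adjacent gene of the same receptor family, had 910 and 959 TPM in retained-intron isoforms and 41.9 and 39.6 TPM in protein-coding ones. Its share was lower than that of Lilrb4a, at 71.5% and 72.4%. Isoforms annotated for nonsense-mediated decay held another 24.3% and 24.0% of its TPM, and protein-coding isoforms 3.3% and 3.0%. The leading isoform Lilr4b-207 keeps introns 4 and 5 shown above, of 857 and 638 bases, and had 227 and 307 TPM. Both donors begin with GTAAGT. The leading isoforms of Lilrb4a and Lilr4b share 958 and 77 bases with exons of Gm49339, and reads there cannot be told apart. These receptors, Pirb and H2-Q7 belong to families of similar genes, and how reads divide within a family was not tested.

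Clec4e (chr6:123281789-123289870) encodes Mincle, a C-type lectin receptor for mycobacterial glycolipids that Toll-like receptor ligands induce. It had 545 and 393 TPM in retained-intron isoforms and 174 and 193 TPM in protein-coding isoforms. The resulting share of 73.0% and 65.8% was a mean of 69.4% ± 5.1 (SD, n = 2). All 3 of its retained-intron isoforms keep a complete coding intron, and Clec4e-205 keeps introns 2 and 3 together, of 2375 and 72 bases. The split among them differed between libraries: Clec4e-205 had 190 and 320 TPM, whereas Clec4e-206 had 293 and 60.1 TPM. The gene's total share thus moved less than the level of either isoform.

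Ptprc (chr1:138062861-138175708) encodes CD45, the receptor tyrosine phosphatase of leukocytes. Retained-intron isoforms held 280 and 242 TPM and protein-coding isoforms 115 and 104 TPM, a share of 70.9% and 69.98%. Ptprc-210, which keeps intron 5 of 2125 bases, is a 1-exon transcript and had 82.2 and 72.2 TPM. Isoforms spanning a complete coding intron carried 36.3% and 38.5% of the gene's retained-intron TPM, and the rest lay in isoforms that start or end inside an intron.

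Pirb (chr7:3711409-3720391), a paired inhibitory receptor, had 290 and 210 TPM in retained-intron isoforms and 46.9 and 44.8 TPM in coding ones. Its share was 86.1% and 82.4%. Pirb-202 has the exons of the coding isoform apart from intron 6, whose 227 bases are printed above, and a shorter 3′ end. It had 196 and 148 TPM. Intron bases made up 7.8% of that isoform, so most of its reads could come from sequence it shares with coding transcripts. Cd83, a surface marker of activated antigen-presenting cells, showed a similar layout, with 95 intron bases, 4.4% of Cd83-202, and a share of 86.8% and 83.3%. The other 5 receptors, Ms4a6b, Icosl, Gpr141, Ms4a4b and Il17ra, had shares from 66.9% to 84.8%.

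**Figure D2:**
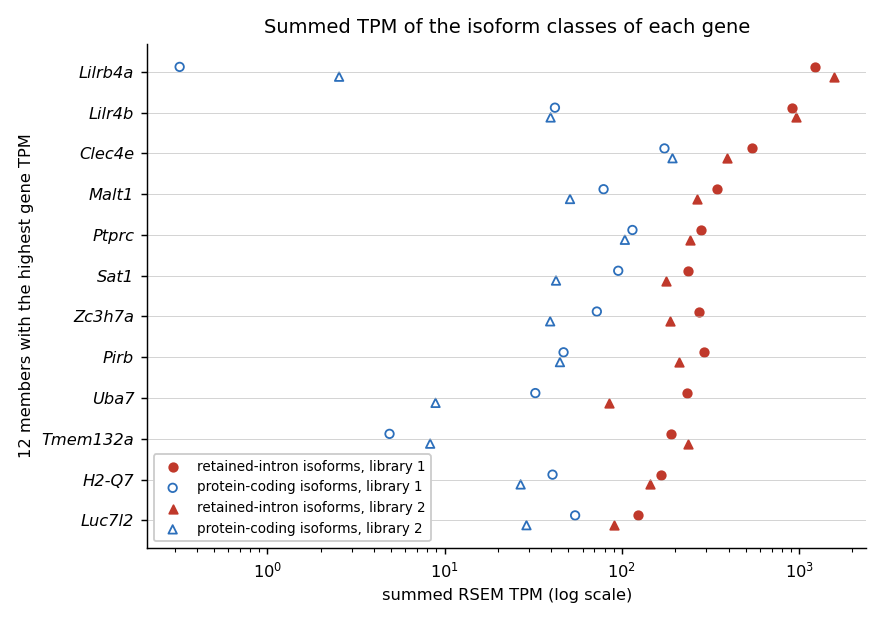
Summed RSEM TPM (log scale) of retained-intron isoforms (red, filled) and protein-coding isoforms (blue, open) in library 1 (circles) and library 2 (triangles) for the 12 members with the highest gene TPM. Retained-intron isoforms stand above coding isoforms in every pair, as the rule requires; the gap is widest for Lilrb4a.

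Genes of interferon response, antigen presentation and immune signalling made up 8 members, with shares from 63.7% to 87.9%. Malt1, the paracaspase that links antigen and C-type lectin receptors to NF-kB, had 344 and 267 TPM in retained-intron isoforms and 78.9 and 51.0 TPM in coding ones. Uba7, the enzyme that activates the ubiquitin-like protein ISG15, had 233 and 85.1 TPM in retained-intron isoforms. Its coding isoforms stood at 32.5 and 8.89 TPM, so both classes were lower in library 2. Tap2, a subunit of the peptide transporter for MHC class I, had a share of 79.3% and 79.1%, all of it on Tap2-202, which keeps intron 6 of 162 bases. Psmb8, an immunoproteasome subunit, had 87.9% in library 1 and 72.2% in library 2. Both of these neighbouring genes share exon bases with the antisense gene Gm20496, at 0.67 and 0.60 TPM, which covers all 190 bases of the intron in the leading isoform of Psmb8. H2-Q7, a non-classical MHC class I gene, had 80.3% and 84.3%, and Irf3, a transcription factor of the interferon response, had 73.1% and 70.8%.

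RNA processing, transcription and chromatin supplied 20 members, without a count of the eligible genes of this role to set it against. Arglu1 (chr8:8665075-8690521) had 20.6 and 14.2 TPM on the only retained-intron isoform it has, Arglu1-204, which keeps intron 2 of 2280 bases. The share of Arglu1 was 76.0% and 87.7%. Ncl, the nucleolar protein nucleolin, had 25.7 and 30.9 TPM in retained-intron isoforms, a share of 82.9% and 85.2%, and its leading isoform keeps introns 9 and 10.

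Snrnp70, the U1-70K protein of the U1 particle, had 62.0% and 70.4%, and Prpf39, a U1-associated factor, had 76.5% and 77.5%. The splicing regulator Rbm5 had 69.9% and 79.4%, and Srpk1, the kinase of SR splicing proteins, had 62.4% and 66.2%. Higher shares stood in Thoc1, a subunit of the THO complex that couples transcription to export, at 87.5% and 87.6%, and in Rbm4b, an RNA-binding protein, at 91.5% and 93.3%. Thoc1 shares 405 exon bases with Usp14 on the opposite strand, and the share of reads from each gene there cannot be told apart because the use of strand in counting is not given in the sources used here. Hdac1, a histone deacetylase, had 71.5% and 75.6%. In this group the share was higher in library 2 in 18 of 20 genes, beside 74 of 126 over all members. It was higher in 14 of 17 metabolism genes, 5 of 5 DNA replication genes, 3 of 11 immune receptors and 2 of 8 genes of the interferon and antigen presentation group. These groups hold only members, which the same shares chose, so the counts show no pattern by role. The gene lists described below also hold other genes. Among their genes with a retained-intron isoform, the share was higher in library 2 in 16 of 47 for chromatin and transcription. It was higher in 36 of 66 splicing factors and in 16 of 20 genes known for regulated retained or detained introns. These differences were not tested.

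Metabolism supplied 17 members. Sat1, the rate-limiting enzyme of polyamine breakdown, had 237 and 177 TPM in retained-intron isoforms, a share of 62.0% and 73.2%. Slc27a1, a fatty acid transporter, reached 99.7% and 100.0%, with 55.6 and 42.5 TPM in retained-intron isoforms and 0.18 and 0.00 TPM in coding ones. Cers6, a ceramide synthase, had the widest gap between the libraries of all members, 84.0% against 62.1%. The retained-intron level of Cers6 went from 150 to 56.2 TPM while its coding isoforms had 28.5 and 34.4 TPM. Acaa1a, a peroxisomal thiolase, had the widest gap the other way, 61.8% against 81.6%, with both classes lower in library 2.

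Ubiquitin, autophagy and membrane traffic supplied 16 members, led in share by the deubiquitinase Usp15 at 90.8% and 92.8%. Becn1, a core autophagy protein, had 73.0% and 84.1%. The leading isoform of Becn1 shares 43.0% of its bases with exons of Cntd1 on the opposite strand, which had 0.83 and 0.21 TPM. Cytoskeleton and small GTPases also supplied 16 members, with shares from 61.1% to 88.5%, among them Fgd2 at 64.2% and 76.0%. DNA replication and repair supplied 5, with the clamp loader subunit Rfc2 highest at 91.3% and 92.8%, and translation 4, with the ribosomal protein gene Rps20 at 77.2% and 68.7%. A total of 29 members fell into none of these groups.

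Some of these ungrouped members were abundant or had very high shares. Tmem132a (chr19:10857822-10869940), a transmembrane protein gene, had 189 and 236 TPM on its only retained-intron isoform, Tmem132a-203, and 4.89 and 8.29 TPM in coding isoforms. That isoform is a 1-exon transcript at the 3′ end of the gene that keeps 2 introns, of 412 and 368 bases. A stretch of 225 of its bases lies opposite exons of Slc15a3, a peptide and histidine transporter gene with 20329 and 13854 expected counts. None of these shared bases was an intron base, and whether reads of Slc15a3 entered the level of Tmem132a was not tested. Zc3h7a, a zinc finger protein gene, had 272 and 187 TPM in retained-intron isoforms and a share of 74.0% and 76.6%. Olfr56 had 94.8% and 97.0% and shares 111 bases with the interferon-inducible gene Ifi47 on the same strand. Gm21188 had 93.9% and 98.6% and 9030025P20Rik 89.5% and 94.2%.

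The members had a median of 5 retained-intron isoforms each, against 2 in the other eligible genes that have one, and 12 members had 1. Of their 643 retained-intron isoforms, 215 (33.4%) keep a coding intron from end to end. These carried 50.9% of the members' retained-intron TPM in library 1 and 52.2% in library 2, and in the other eligible genes the same class carried 34.6% and 33.1%. Isoforms that start inside an intron carried 20.8% and 24.3% in the members, and isoforms that end inside one 21.4% and 16.6%. By kallisto TPM, isoforms that keep a complete intron carried 42.4% and 42.0% in the members and 26.3% and 26.2% in the other eligible genes. These percentages pool the genes, so abundant genes weigh more. In 36 of 126 members no retained-intron RSEM TPM lay on an isoform that keeps a complete intron, beside 1236 of 2473 other eligible genes with retained-intron TPM above 0. Such isoforms held at least 50% in both libraries in 38 members and in 629 of those other genes.

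**Figure D3:**
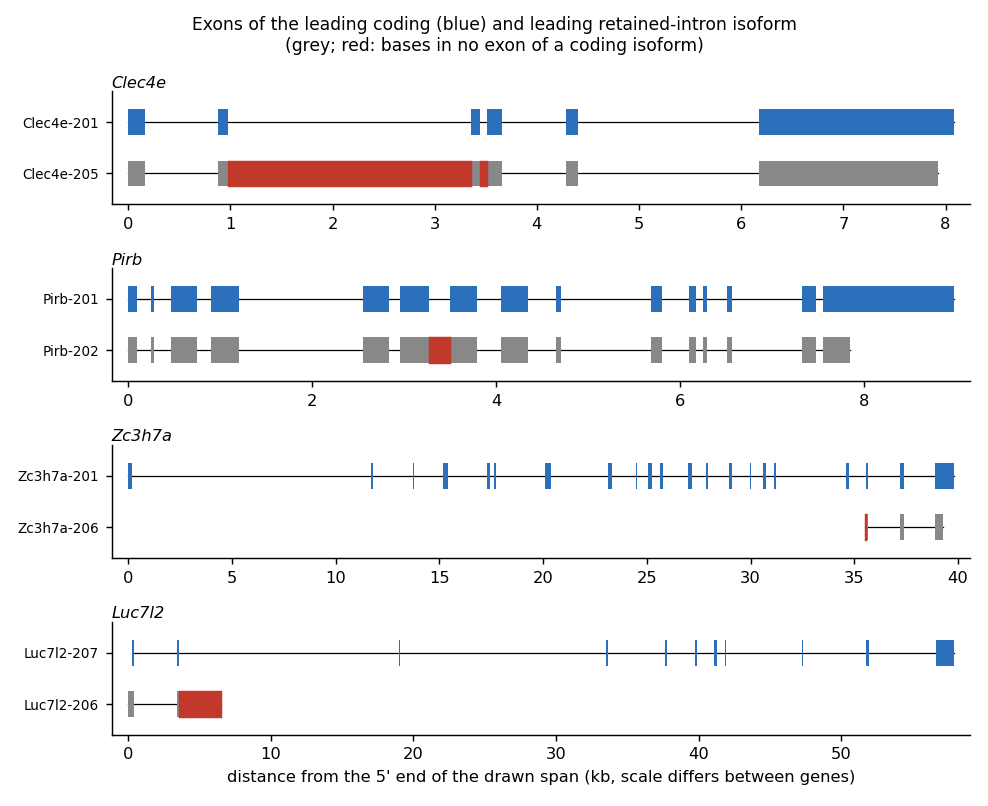
Exons (boxes) of the leading protein-coding isoform (blue) and the leading retained-intron isoform (grey) of Clec4e, Pirb, Zc3h7a and Luc7l2, drawn 5′ to 3′ against distance in kilobases, with a scale for each gene. Red marks bases in no exon of any coding isoform: complete introns in Clec4e and Pirb, a short piece at the 5′ end in Zc3h7a and a long 3′ piece in Luc7l2.

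Taking the retained-intron isoform with the highest level in each member, 46 of 126 (36.5%) keep at least 1 complete coding intron, and 734 of 2473 (29.7%) did so in the other eligible genes with such an isoform above 0 TPM. The remaining isoforms mostly end inside an intron, as in Luc7l2, or start inside one, as in Zc3h7a, where intron bases make up 5.9%. The leading retained-intron isoforms had a median length of 2478 bases and the leading coding isoforms 3550.5, a median ratio of 0.664 over the genes. In the other eligible genes that ratio was 0.401. Because TPM divides by length, a short isoform needs few reads for a high TPM, and this bears on each share given here.

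The 46 leading isoforms hold 61 complete introns with a median length of 730 bases, from 72 in Clec4e to 3822 in Med20, a Mediator subunit gene. The introns kept in the other eligible genes had a median of 391 bases. Donor GT with acceptor AG was found in 59 of 61 (96.7%) and in 97.7% of those of the other genes. The other 2 are a GC donor in intron 7 of 9030025P20Rik and an intron of Ubp1 that ends in TC. The donor letters GTAAGT or GTGAGT, searched on the gene's strand at the intron's first 6 bases, stood in 13 of 61 (21.3%) and in 25.2% of the others. Median GC content was 46.0% in the introns and 51.5% in the exon bases beside them, against 48.2% and 52.0%. Splice-site letters and base composition were thus close in both sets, while intron length differed more; no test was made.

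The leading isoform shared bases with exons of another gene in 30 of 126 members (23.8%), against 12.9% of the other eligible genes, and in 14 (11.1%), against 4.7%, at least 1 of the shared bases was an intron base. In Tbce and Ubp1, for example, 1 of 323 and 3 of 496 bases shared with a coding gene on the opposite strand were intron bases. The use of strand in counting is not given in the sources used here. Reads of antisense neighbours could thus have entered these levels, and their part was not tested. Overlaps on the same strand cannot be resolved by strand. The leading isoform of Ptp4a1 shares 67.2% of its bases with a second coding gene of that symbol. That second gene had 1285 and 1182 expected counts, beside 695 and 588.5 for the member. Uba7 shares 46.3% with the coding gene Gm20661, at 0.66 and 0.89 TPM. No shared base was an intron base in Ptp4a1, and 39 were in Uba7. How reads divide between these genes was not tested. In no member did the intron bases overlap a small RNA gene.

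kallisto, which assigns the same reads to transcripts by another method, gave median member shares of 70.1% and 72.8%. By kallisto TPM, 99 of 126 members had at least 60% in both libraries and 116 at least 50%, while 4 were under 50% in both. The widest differences between the methods stood in Becn1, 78.5% ± 7.8 (SD, n = 2) by RSEM and 48.8% ± 0.76 by kallisto, and in Cdk14, a cyclin-dependent kinase, 64.8% ± 2.7 and 38.0% ± 0.56. Ptprc had 70.5% ± 0.67 and 47.2% ± 1.4. Olfr56 had 95.9% ± 1.5 and 73.8% ± 5.3, and Pfkp, a phosphofructokinase, 73.6% ± 0.39 and 53.5% ± 1.1. By kallisto, Becn1, Cdk14, Ptprc and Pfkp would not have met the rule.

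Shares of expected counts, which are not divided by length, were lower. Their medians were 63.4% and 64.1%, and 69 of 126 members had at least 60% in both libraries, while 25 had under 50% in both. Chic2, a membrane-associated protein gene, had 62.6% ± 0.79 (SD, n = 2) of its TPM but 5.2% ± 0.34 of its counts in a retained-intron isoform of 521 bases, beside a coding isoform of 9699 bases. Sart1, a U4/U6.U5 splicing particle factor, had 69.9% ± 12 of TPM and 13.4% ± 5.3 of counts, and Rps20 had 73.0% ± 6.0 and 21.9% ± 5.5. Zc3h7a, Cers6 and Hdac1, given above by TPM, had 46.9% ± 5.0, 31.3% ± 17.6 and 48.5% ± 3.7 of counts. The order was reversed in Clec4e, with 69.4% ± 5.1 of TPM and 81.7% ± 3.2 of counts, and in Amn1, with 70.6% ± 0.48 and 97.0% ± 0.35. All 3 measures put 54 members at or above 60% in both libraries. These measures come from the same reads and are not independent of the rule.

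**Figure D4:**
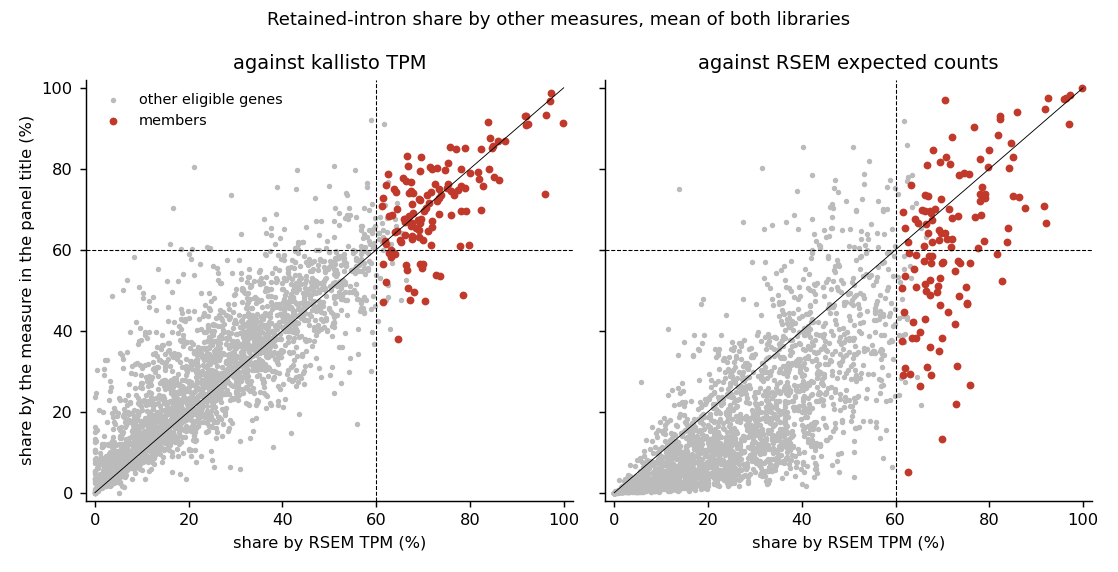
Retained-intron share by RSEM TPM (horizontal axis, percent, mean of both libraries) against the share by kallisto TPM (left panel) and by RSEM expected counts (right panel), for the members (red) and the other eligible genes (grey). Dashed lines mark 60% and the thin line equal values; members lie around the line in the left panel and spread far below it in the right one, down to Chic2.

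Between the libraries, the share differed by under 5 percentage points in 74 members and by over 10 in 21, of which 16 were higher in library 2 and 5 lower. The extremes after Cers6 and Acaa1a were Sart1, at 61.2% and 78.6%, Mplkip, at 73.9% and 90.8%, and Psmb8. The share was higher in library 2 in 74 of 126 members (58.7%), against 890 of 2504 (35.5%) of the other eligible genes with a retained-intron isoform. By kallisto TPM these were 60.3% and 40.8%. The shares compared here are those that chose the members, so the rule itself shapes this contrast. Applied to library 1 alone it gave 204 genes, and to library 2 alone 181. The smaller RNA input and the lower depth of library 2 also move with this difference. The part of each was not tested.

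Gene levels, summed over all isoforms, were compared between the libraries as log2 of (TPM + 1). After centring on the eligible genes, whose median log2 ratio of library 2 to library 1 was -0.34, the members' ratios had a median of -0.09 and ran from -0.96 in Fgd2, an exchange factor for Cdc42, to 0.68 in Lilrb4a. None of the 126 was more than 2-fold apart, where 0.993% of the eligible genes (38 of 3825) were. Fgd2 had 149 and 59.7 TPM, Acaa1a 49.5 and 20.0 TPM and Uba7 313 and 132 TPM, whereas Lilrb4a had 1266 and 1602 TPM. The median gene level was 31.3 TPM for the members and 23.7 TPM for all eligible genes.

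Gene lists for the tissue, the treatment and RNA processing were read against the 3.29% of all eligible genes that were members. The lists were drawn up with earlier results of these data known. None of 16 eligible cytokine and chemokine genes and none of 50 NF-kB, TLR and MAPK signalling genes were members, counts that lie near that background in lists of this size. The median shares of these lists were 4.9% and 12.6%. A gene without an annotated retained-intron isoform cannot be a member, yet it counts in the list medians with no share. Such an isoform was annotated for 9 of the 16 and 33 of the 50 genes, and for 2630 of all 3825 eligible genes. Several immune genes that the rule leaves out by name are not counted in these lists. Of 67 interferon-stimulated genes 3 were members, Uba7, Tap2 and Psmb8, or 4.5%. Clec4e was the only member among 44 lysosome, lipid and receptor genes of macrophages, a list with a median share of 2.8%. Of these 44 genes, 28 had an annotated retained-intron isoform. Hdac1 was the only one among 60 chromatin and transcription genes.

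Splicing factors outside the names left out by the rule held 8 members of 79 (10.1%), among them Luc7l2, Rbm5, Snrnp70, Prpf39, Thoc1, Srpk1 and Arglu1, with a list median of 34.0%. All 8 had a higher share in library 2, as had 36 of the 66 listed genes with a retained-intron isoform. Genes known for regulated retained or detained introns held 5 members of 23 (21.7%), among them Snrnp70, Ncl, Arglu1 and Atr, with a list median of 47.9%. Of these 23 genes, 20 had an annotated retained-intron isoform, so the lists differ in annotation as well as in share. Atr, the kinase that responds to stalled replication, had 64.9% and 70.01%. Other genes of that list stayed below the threshold in at least 1 library, such as Ccnl1, a cyclin, at 55.6% and 59.6%, Ogt, the O-GlcNAc transferase, at 42.1% and 53.6%, and Mat2a, which makes S-adenosylmethionine, at 22.5% and 19.01%. Ribosomal protein and translation genes held 2 of 33, Ncl and Rps20, and decay and export genes 1 of 14, Thoc1. No test was made on these lists.

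**Figure D5:**
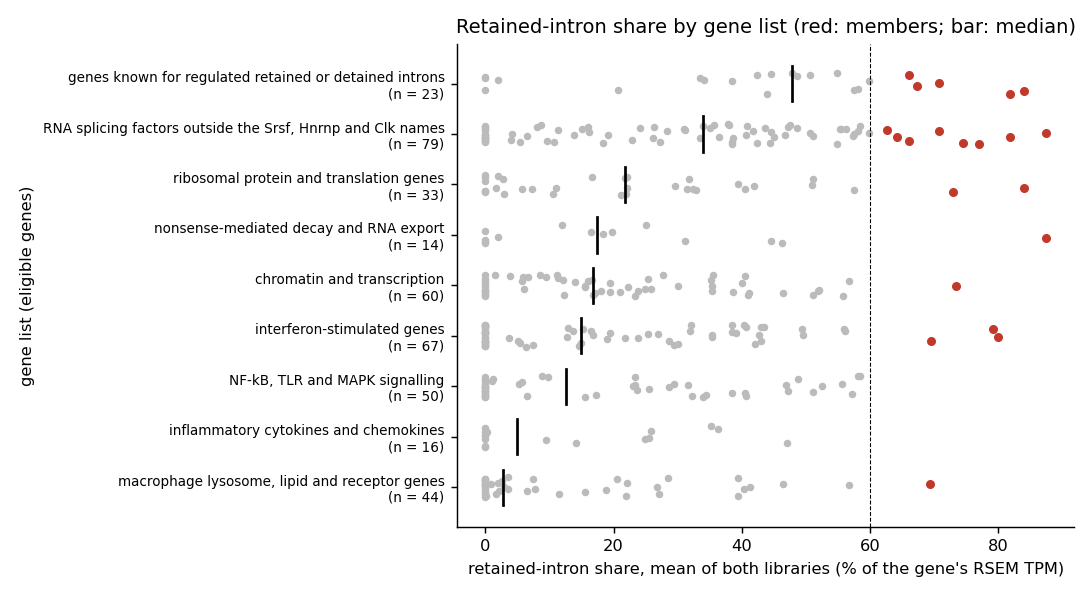
Retained-intron share (percent of RSEM TPM, mean of both libraries) of each eligible gene in 9 lists; red points are members, grey points other genes, the black bar the list's median and the dashed line 60%. Medians run from 2.8% in macrophage lysosome, lipid and receptor genes to 47.9% in genes known for regulated retained or detained introns. Genes without an annotated retained-intron isoform are included, and their part differs between lists.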

How the data were processed

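Each of the 2 libraries came with RSEM tables of genes and transcripts and a kallisto table of transcripts, on mm10 with GENCODE M21. Versions of these programs and their strand setting are not stated in the sources used here. The authors deposited expected counts, estimates that need not be whole, and TPM, a level per transcript length, per the file headers. The deposited percent of a gene's TPM in each isoform was recomputed here from transcript TPM. Isoform classes were read from the kallisto identifiers, and 95 RSEM transcripts had no match there. Levels were used as deposited, and library ratios as log2 of (TPM + 1), centred on the median of eligible genes. Introns of at least 50 bases lying whole inside an exon of a retained-intron isoform were taken from the annotation. Python 3.11.15, pandas 2.3.3 and numpy 2.4.6 were used. The selection step was run on simulated counts with known shares away from the threshold and no reads shared between isoforms. That run checks the code and not how reads were assigned to isoforms. Genes named are the members highest in TPM and in share, those nearest the threshold, those with the widest gaps between libraries or between RSEM and kallisto, and listed members. Anything else named was picked after its values were seen. The members and lists were chosen with earlier results of these data known. No test was made: there is 1 group of 2 libraries. Alternatives covered the threshold, the count minimum, the measure, the pseudocount, centring and each library alone. Some listed members are not reported here by name.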

Additional observations from a re-analysis of the deposited data

How the results depend on the processing

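The number of members was 126. It was 253 at a share threshold of 50% and 50 at 70%, 242 at a count minimum of 100 and 70 at 1000. With 1 library left out it was 181 to 204. It was 166 by kallisto TPM, 126 by expected counts and 123 by posterior mean TPM, of which 99, 69 and 122 were members. Counting only isoforms that keep a complete coding intron, an alternative chosen after seeing the data, left 20 genes. Leaving out the members whose leading isoform shares bases with another gene's exons, also chosen then, left 96. The median share of 70.3% was 71.8% by kallisto TPM, 63.4% by expected counts and 69.8% by posterior mean TPM, and 70.2% to 71.3% with 1 library left out. The median log2 ratio of -0.086 was -0.028 by kallisto TPM, -0.427 without centring and -0.168 at a count minimum of 100. Over 2-fold apart were 0 members by RSEM or kallisto TPM and 7 without centring. The length ratio of 0.664 was 0.637 with effective lengths. Of 47 named genes, the share moved beyond the SD of the libraries in 24 by kallisto TPM, 32 by expected counts and 8 by posterior mean TPM. The causes were not tested.

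No paired analysis was possible because the series has 1 group. With 2 libraries from 1 donor entry, differences between animals, and between Lipid A and untreated cells, were not measured. Isoform levels are estimates from reads that isoforms share, at the depth given above.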
